A study of Mus musculus with 9 samples.

Results

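The genes described here are the 45 probes of the deposited table behind a figure of the study, out of 25697 probes on the array. They were taken by probe identifier alone. Of the 45, 40 carry a gene symbol in the platform annotation and stand for 38 genes, since Hspa2 and Tmem14c have 2 probes each in the table, and 5 carry no symbol here. The measurement was made on 9 single-colour Illumina mouse Ref-8 beadchips, 3 per genotype. All mice were labelled C57BL/6J; the genotypes were a normal control, AhR-d and AhR null, where the labels give neither the origin of the alleles nor the age of the mice. All cells shared the same handling. They were mast cells grown from bone marrow for 4 weeks with 30% WEHI-3-conditioned medium, a source of interleukin-3, purified by negative selection on magnetic beads and rested for 4 h without cytokine. Each of 3 culture batches gave 1 array per genotype, so the replicates are batches; the labels do not say whether they came from separate animals, so the spread between them may be partly technical.

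AhR, the aryl hydrocarbon receptor, is a transcription factor of the cytosol that moves to the nucleus once a ligand binds, pairs with ARNT and binds DNA at elements with the core GCGTG. The d allele encodes a receptor known for its weaker binding of dioxin-type ligands, and the null genotype lacks a working receptor. Most of the named genes encode mitochondrial proteins: parts of the respiratory chain, which passes electrons to oxygen and drives ATP synthesis, the carriers that move metabolites across the inner membrane, the mitochondrial ribosome, and enzymes of the matrix. Mast cells are immune cells of tissues that store histamine and proteases in granules, and mitochondrial ATP and calcium handling are known to take part in their degranulation.

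No source used here gives the study's criterion for these probes. Before any scaling between arrays, the mean deposited signal of every one of the 45 probes was at least 1.82 times as high on the AhR null as on the control arrays, with a median of 2.06 times and a highest ratio of 8.13. Over the 9777 probes that passed a detection filter (detection p-value under 0.01 on at least 3 arrays), the median ratio was 1.45, and 18.5% of them reached 1.82. A higher signal in AhR null cells is therefore treated as part of the choice. The values that follow describe the probes, and the log2 difference is the measure used throughout. Calls of a fit over all probes tested are given as counts and names; since they rest on the same arrays as the choice, they are no independent test of any member.

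All 45 probes passed the detection filter, and 38 were detected on all 9 arrays. The arrays differed in brightness. Mean deposited signal ran from 324 to 527 on control, from 338 to 684 on AhR-d and from 523 to 636 on AhR null arrays, and the number of probes detected from 7901 to 9733. Ahr itself gave no check of the genotypes, because its only probe was detected on 0 of 9 arrays. Of 14 measured mast cell markers 13 were detected on all 9 arrays, and 7 of 8 lymphocyte markers were detected on none. The mean log2 level over the mast cell list was 12.30 to 12.63 on control, 12.81 to 13.04 on AhR-d and 12.85 to 13.34 on AhR null arrays, so controls were lowest without overlap, and over the basophil list it was 9.48 to 9.62, 9.33 to 10.35 and 9.99 to 10.14. Over the neutrophil list it was 4.72 to 4.83 on control, 4.76 to 7.26 on AhR-d and 6.08 to 6.42 on AhR null arrays; of its 11 genes on the array, Camp, Cebpe and Ngp were detected nowhere and no member was detected on a control array. The monocyte list ran from 5.87 to 6.66, from 6.60 to 7.74 and from 6.77 to 7.41 in the same order, with C1qa, Ccr2 and Fcgr1 detected nowhere, and the erythroid and megakaryocyte list from 6.12 to 6.40, from 6.70 to 7.46 and from 7.11 to 7.27, with Alas2, Gp1bb and Ppbp detected nowhere. All these marker lists stood lower on every control array than on every AhR null array, and brightness ran the same way with overlap. AhR-d arrays reached above the AhR null range in brightness and in every list but that of mast cells. How much of the results goes with brightness or with marker levels was not tested. Brightness entered only as a covariate in an alternative fit given below, and marker levels entered no fit. In bulk RNA of this kind, a change in the share of a cell type cannot be told apart from a change in RNA per cell.

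After background correction and quantile normalisation, all 45 probes still had a higher mean in AhR null than in control cells, by smaller amounts. The median log2 difference was 0.56 (lowest 0.17 for Mrpl36, highest 2.67 for Tgm2), which is 1.47-fold, against 0.0018 over all probes tested. In the deposited signal the medians had been 1.06 for the figure probes and 0.56 for all probes. Quantile normalisation without background correction gave 0.41 and -0.0022. In the scaled values 15 of the 45 differed by more than 1, as did 5.83% of all probes. The figure probes are not the extreme of the array: 37.6% of the probes tested lay above the lowest of them and 55 probes above Tgm2. In the fit over all probes, 18 of the 45 passed an adjusted p of 0.05 as higher and 0 as lower, where 6.56% of all probes tested were called higher and 5.12% lower; this contrast is treated as part of the choice, so nothing is read from the share. The 18 include Rida and Ppm1k, which no control array detected. These 2 passed the detection filter only through AhR-d and AhR null arrays, so nothing is read from their calls. The lowest AhR null value exceeded the highest control value for 36 of the 45, as for 17.7% of all probes. Within batches the median difference was 0.53, 0.66 and 0.59, and 43 of the 45 were higher in AhR null cells in all 3 batches, as were 26.8% of all probes; the exceptions were Hspd1 and an unnamed probe.

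**Figure D1:**
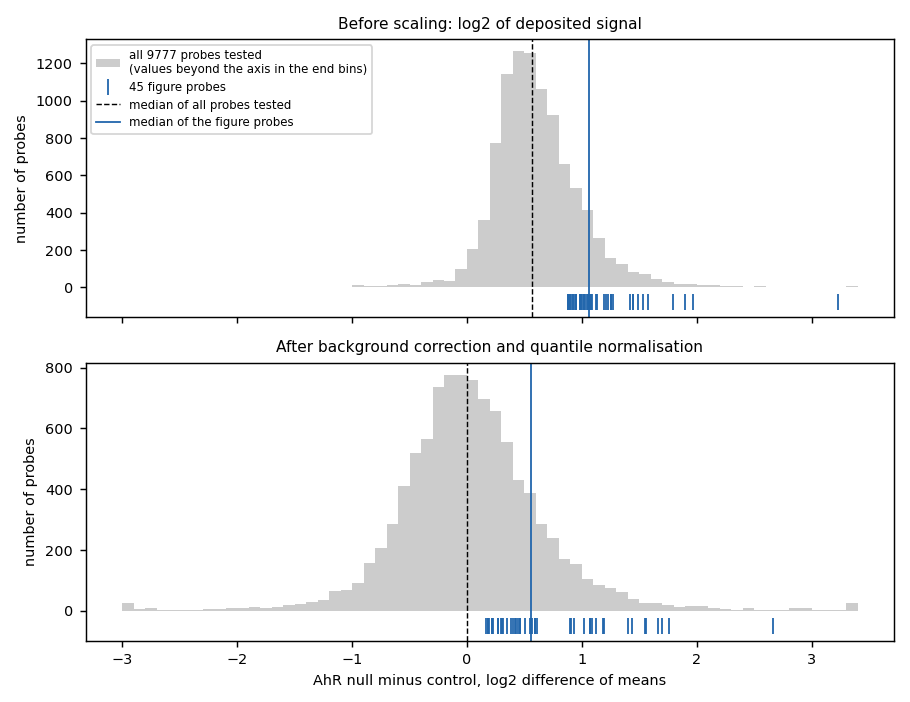
Histograms of the AhR null minus control log2 difference over the 9777 probes tested, from deposited signal (top) and after background correction and quantile normalisation (bottom), with the number of probes on the vertical axis. Blue ticks mark the 45 figure probes and lines mark the medians; background correction and normalisation together move the median of all probes from 0.56 to 0.0018 and that of the figure probes from 1.06 to 0.56.

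AhR-d cells lay between the other genotypes for most members. The median difference from control was 0.28 against -0.0093 over all probes tested, with 41 of the 45 above 0 and 4 below, namely Isca1, Kifbp, Arl2bp and an unnamed probe. Called were 0 of the 45, where 0.276% of all probes were called higher and 0.0409% lower. The AhR-d arrays stood wholly above the control arrays for 10 of the 45, as for 4.88% of all probes, and 15 were higher in all 3 batches, as were 14.3%. AhR null exceeded AhR-d by a median of 0.30 against 0.019 over all probes, and all 45 means were higher. There 2 of the 45 passed the threshold, the lysosomal genes Tpp1 and Atp6v1a, where 0.726% of all probes were called higher and 1.36% lower, and 14 did not overlap, as for 11.6%. These comparisons share arrays with the first. The means were ordered control, AhR-d, AhR null from low to high in 41 of the 45 probes, against 55.0% of the probes tested whose AhR null mean exceeded the control mean. That condition is treated as part of the choice of the figure probes, and nothing further is read from the order. Without the AhR-d array of batch 2 the median AhR-d minus control difference was 0.17, and leaving out the AhR-d array of batch 2 or 3, or any AhR null array, left 1 of the 2 calls against AhR-d. With batch as a block, 22 of the 45 passed for AhR null against control (10.8% of all probes), 2 for AhR-d against control (Tgm2 and Ppif; 1.00%) and 4 for AhR null against AhR-d (Tpp1, Tgm2, Atp6v1a and an unnamed probe; 2.60%).

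**Figure D2:**
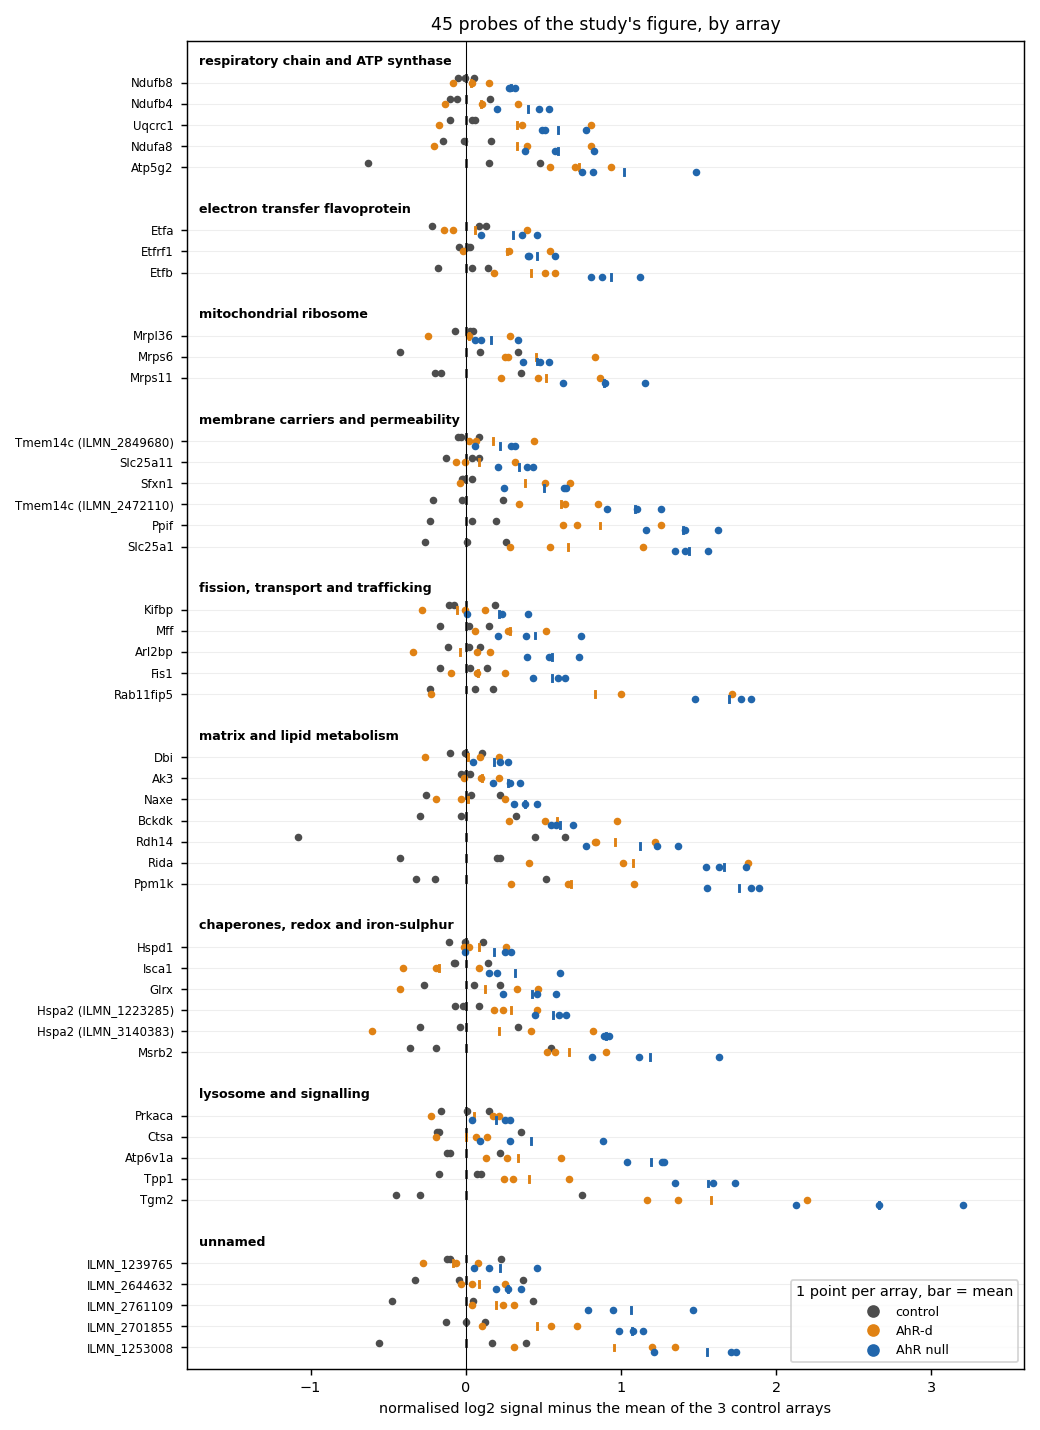
Each row is 1 of the 45 figure probes, grouped by the function of its gene, and each point is 1 array (3 per genotype), as normalised log2 signal minus the mean of the 3 control arrays; short bars mark the genotype means. The AhR null points lie right of all control points for 36 probes, Tgm2 lies farthest right, and AhR-d points spread most widely for Rab11fip5.

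The single arrays show how brightness and genotype run together. The median deposited signal of the 45 probes was 425.1, 698.3 and 461.1 on the control arrays of batches 1 to 3, 1229, 711.9 and 434.8 on the AhR-d arrays, and 1249, 1420 and 1183 on the AhR null arrays. The AhR-d array of batch 1 was the brightest of the 9 and reached the AhR null range before scaling, whereas the AhR-d array of batch 3 matched the controls. After scaling, the mean deviation of the 45 probes from their own 9-array means was -0.40, -0.29 and -0.43 on control, 0.048, 0.057 and -0.17 on AhR-d and 0.32, 0.50 and 0.36 on AhR null arrays. The control arrays were lowest and the AhR null arrays highest on this score, and the AhR-d arrays lay between them. A higher AhR null signal is treated as part of the choice, so nothing is read from this order. With the brightness of each array as a covariate, an alternative added after the data were seen, 43 of the 45 differences between AhR null and control stayed above 0 with a median of 0.52, and 7 probes were called, where 2.17% of all probes were called higher.

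**Figure D3:**
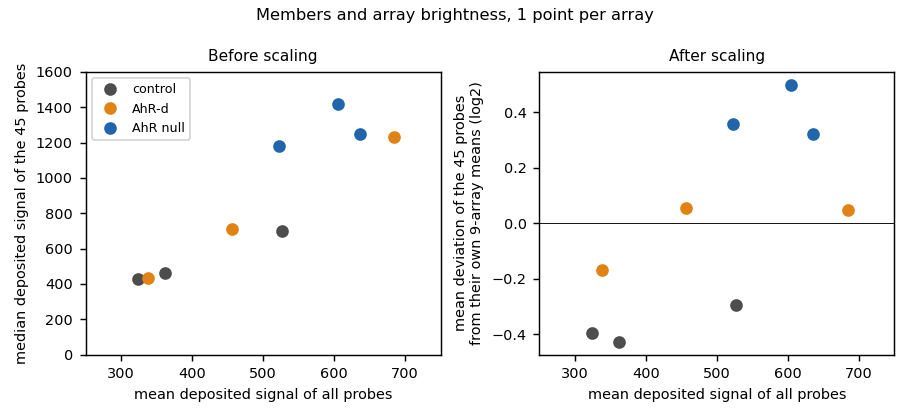
Each point is 1 of the 9 arrays, coloured by genotype, against its mean deposited signal over all probes. The left panel gives the median deposited signal of the 45 figure probes, which reaches 1229 on the brightest AhR-d array; the right panel gives their mean log2 deviation after scaling, where the 3 AhR null arrays lie between 0.32 and 0.50 and all control arrays at or below -0.29.

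Promoters were read from RefSeq windows of assembly GRCm38.p6, which run from 250 bases before to 50 bases after a gene's start. A window was found for 36 of the 38 genes; Rida and Tgm2 were not among those matched. The AhR core GCGTG, searched on both strands, was present for 18 of the 36 genes (50%), against 57.5% of the genes with a probe tested and 35.2% of all genes of the table. The longer TNGCGTG, which contains the core, was present for 3 genes (8.33%), against 9.57% and 5.84%. The antioxidant response element core TGACNNNGC, the site of NRF2-type factors, was present for 8 (22.2%), against 17.1% and 14%. The figure genes thus held the AhR core at a share between both backgrounds. As examples of the element in its setting, the windows of the 3 members with the largest AhR null minus control difference among those that hold the core are printed 5′ to 3′ along the gene's own strand, with the core in capitals (CACGC where it lies on the opposite strand). Rab11fip5, a partner of the endosomal GTPase Rab11, has 1 match (chr6:85374585-85374884, minus strand). Slc25a1, the citrate carrier, has 5 (chr16:17928170-17928469, minus strand), including an adjoining pair. Ppif, cyclophilin D, has 2 (chr14:25693920-25694219, plus strand).
Rab11fip5: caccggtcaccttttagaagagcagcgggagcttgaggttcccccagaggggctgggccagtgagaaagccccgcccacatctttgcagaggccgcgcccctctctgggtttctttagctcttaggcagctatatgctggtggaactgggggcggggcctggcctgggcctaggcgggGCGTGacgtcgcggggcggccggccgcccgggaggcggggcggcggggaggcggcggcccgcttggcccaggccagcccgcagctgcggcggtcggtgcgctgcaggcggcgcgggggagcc
Slc25a1: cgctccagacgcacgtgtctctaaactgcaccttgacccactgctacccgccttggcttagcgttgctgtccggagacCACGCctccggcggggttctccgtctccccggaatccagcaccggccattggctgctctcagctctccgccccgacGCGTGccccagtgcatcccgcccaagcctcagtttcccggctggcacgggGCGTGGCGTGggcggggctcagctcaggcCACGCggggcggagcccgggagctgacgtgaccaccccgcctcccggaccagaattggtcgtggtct
Ppif: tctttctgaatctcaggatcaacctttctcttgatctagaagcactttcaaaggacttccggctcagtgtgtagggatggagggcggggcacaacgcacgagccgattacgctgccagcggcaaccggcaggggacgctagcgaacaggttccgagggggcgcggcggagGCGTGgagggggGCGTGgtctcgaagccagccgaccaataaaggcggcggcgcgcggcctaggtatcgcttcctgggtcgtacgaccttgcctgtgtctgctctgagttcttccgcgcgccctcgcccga
These 3 members were picked for their higher AhR null signal, so nothing is read from its presence beside the core. A match of these letters is a description, not a binding site.

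In what follows, values are normalised log2 signals, listed for batches 1, 2 and 3 in this order, and differences are between genotype means with the standard error (SE) of the fit. Levels of different probes are not comparable, because each probe has its own brightness.

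Among the 5 probes of the respiratory chain and ATP synthase, all 5 were higher in AhR null cells (median 0.59) and 1, Atp5g2, was called. Atp5g2 encodes the c subunit that forms the rotor ring of ATP synthase. Its probe stood at 8.56, 8.89 and 7.77 on the control arrays, at 9.11, 9.34 and 8.95 on the AhR-d arrays and at 9.16, 9.89 and 9.22 on the AhR null arrays. All AhR-d and AhR null values exceeded all control values, and the AhR null mean was 1.02 (SE 0.28) above control, or 2.02-fold, next to 0.73 (SE 0.28) for AhR-d. The control arrays were widely spread, with batch 3 lowest. Ndufa8, an accessory subunit of complex I, gave 7.90, 8.21 and 8.04 in control, 8.86, 8.44 and 7.84 in AhR-d and 8.43, 8.87 and 8.63 in AhR null cells. Its AhR null values lay above all control values, by 0.59 (SE 0.26) on average, while AhR-d reached from below the lowest control value to the AhR null range. The remaining 3 probes, Uqcrc1 of complex III and the complex I subunits Ndufb4 and Ndufb8, differed between AhR null and control by 0.59 (SE 0.22), 0.40 (SE 0.17) and 0.29 (SE 0.14), each without overlap. In AhR-d their differences from control were 0.33 (SE 0.22), 0.10 (SE 0.17) and 0.036 (SE 0.14), each with overlapping arrays.

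Other subunits of the respiratory chain were set beside the members. In this contrast 6.56% of all probes tested were called higher and 5.12% lower between AhR null and control. A list of its subunits without the figure genes had 37 probes tested for 32 genes, with a median AhR null minus control difference of 0.054. Of these 1 passed as higher, Sdhb, the iron-sulphur subunit of succinate dehydrogenase, at a log2 difference of 1.05 (SE 0.20, limma adjusted p = 0.00375), and 0 as lower. Further tested Sdhb probes differed by 0.53 and -0.64, so the gene's probes did not point the same way. A wider set of all Nduf, Sdh, Uqcr, Cox and ATP synthase probes, drawn up after the members were known, had 80 probes for 67 genes, 3 of them called higher and 0 lower, with a median of 0.046. Besides Sdhb these were Cox7a2l at 0.92 (limma adjusted p = 0.00592) and Ndufs4 at 0.79 (limma adjusted p = 0.0263), by the same fit. Further tested Ndufs4 probes differed by 0.41, 0.41 and -0.075. Ranked by difference among all 86 probes of these families, Atp5g2 came 2nd, Ndufa8 8th, Uqcrc1 9th, Ndufb4 17th and Ndufb8 28th. A higher AhR null signal is treated as part of the choice of the members. Nothing is therefore read from these ranks or from the gap between members and other subunits, and the same holds for the families below.

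Of the electron transfer flavoprotein group, which hands electrons from fatty acid and amino acid oxidation to the respiratory chain, 3 of 3 probes were higher in AhR null and 1, Etfb, was called. For Etfb, the beta subunit, the 9 values were 9.24, 9.02 and 9.34 (control), 9.38, 9.71 and 9.77 (AhR-d) and 10.32, 10.00 and 10.08 (AhR null). The genotypes did not overlap, with AhR null highest, and the differences from control were 0.94 (SE 0.18) in AhR null (1.91-fold) and 0.42 (SE 0.18) in AhR-d. Etfrf1, a small regulatory factor of the flavoprotein, stood at 8.66, 8.59 and 8.65 on the control arrays, at 8.62, 9.18 and 8.91 on the AhR-d arrays and at 9.04, 9.04 and 9.21 on the AhR null arrays. Here the AhR null arrays lay above all control arrays (0.46, SE 0.19) and overlapped the AhR-d arrays. Etfa, the alpha subunit, gave 10.85, 10.50 and 10.81 in control, 10.58, 10.64 and 11.11 in AhR-d and 11.18, 10.82 and 11.08 in AhR null cells. Its groups overlapped, since the AhR null array of batch 2 fell below the control array of batch 1, and the difference was 0.31 (SE 0.18).

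The mitochondrial ribosome translates the few proteins encoded in mitochondrial DNA. All 3 of its figure probes were higher in AhR null and 1, Mrps11 of the small subunit, was called. Mrps11 gave 6.92, 7.44 and 6.89 in control, 7.95, 7.55 and 7.31 in AhR-d and 7.71, 8.24 and 7.99 in AhR null cells. No AhR null value reached down to the controls, and the differences from control were 0.89 (SE 0.26) in AhR null and 0.52 (SE 0.26) in AhR-d. Mrps6, also of the small subunit, stood at 7.93, 7.69 and 7.17 on the control arrays, at 7.87, 8.43 and 7.84 on the AhR-d arrays and at 8.07, 8.13 and 7.96 on the AhR null arrays. AhR null and AhR-d had nearly equal means here, 0.46 (SE 0.25) and 0.45 (SE 0.25) above control, where the controls themselves spread the most. Mrpl36 of the large subunit showed the smallest difference of all 45 probes, 0.17 (SE 0.17). Among the 85 tested probes of other mitochondrial ribosomal proteins the median was -0.020, with Mrpl24 called higher at 0.96 (limma adjusted p = 0.0453) and Mrpl13 called lower at -0.83 (limma adjusted p = 0.0237). A further tested Mrpl13 probe differed by 0.11, in the opposite direction. Within the 89 probes of the whole family Mrps11 ranked 2nd, Mrps6 14th and Mrpl36 29th.

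**Figure D4:**
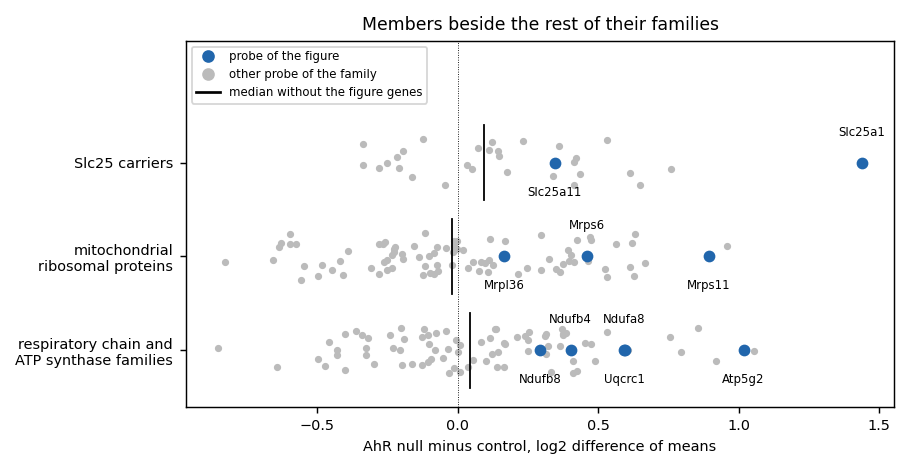
AhR null minus control log2 difference for every tested probe of 3 protein families, with figure probes in blue and labelled, other probes in grey, and a line at the median of the family without the figure genes; vertical scatter is for display only. The medians are 0.046, -0.020 and 0.092 from bottom to top, while the figure probes lie between 0.17 and 1.44.

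The carriers and pore regulators of the mitochondrial membrane comprised 6 probes, all higher in AhR null cells (median 0.80), of which 3 were called. Slc25a1 exports citrate to the cytosol, where it feeds lipid synthesis, and its promoter window with 5 core matches is printed above. Its probe gave 6.86, 6.60 and 6.33 in control, 7.74, 6.88 and 7.14 in AhR-d and 7.94, 8.01 and 8.16 in AhR null cells. The 3 genotypes did not overlap, and the AhR null mean was 1.44 (SE 0.27) above control, or 2.71-fold, and the AhR-d mean 0.66 (SE 0.27) above it. Ppif, the regulator of the permeability transition pore whose window holds 2 core matches, stood at 9.20, 9.62 and 9.47 on the control arrays, at 10.15, 10.69 and 10.05 on the AhR-d arrays and at 10.84, 11.06 and 10.59 on the AhR null arrays. All AhR-d values exceeded all control values, by 0.87 (SE 0.21) on average, and AhR null was 1.40 (SE 0.21) above control, or 2.64-fold. Tmem14c, an inner membrane protein needed for haem synthesis in erythroid cells, was listed with 2 probes whose differences were unequal in size. The probe ILMN_2472110 gave 8.86, 8.41 and 8.59 in control, 9.47, 9.26 and 8.96 in AhR-d and 9.53, 9.72 and 9.88 in AhR null cells, with no overlap between genotypes and a difference of 1.09 (SE 0.20). By contrast ILMN_2849680 gave 10.17, 10.06 and 10.04 in control, 10.11, 10.53 and 10.16 in AhR-d and 10.38, 10.41 and 10.15 in AhR null cells, with overlapping groups and a difference of 0.22 (SE 0.17). Sfxn1, the mitochondrial serine transporter, stood at 11.60, 11.54 and 11.53 on the control arrays, at 11.52, 12.07 and 12.23 on the AhR-d arrays and at 12.20, 12.19 and 11.80 on the AhR null arrays. Its AhR null arrays lay above the controls by 0.51 (SE 0.19), whereas the AhR-d arrays of batches 2 and 3 were high and that of batch 1 was at the control level. Slc25a11, the oxoglutarate carrier, gave 10.40, 10.23 and 10.45 in control, 10.29, 10.35 and 10.68 in AhR-d and 10.79, 10.57 and 10.75 in AhR null cells. AhR null lay above control without overlap, by 0.35 (SE 0.16), and AhR-d overlapped both. Over the 26 tested probes of other Slc25 carriers the median difference was 0.092, with 0 called in either direction by the same fit; among all 31 probes of the family Slc25a1 ranked 1st and Slc25a11 11th.

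Genes of mitochondrial fission, motor transport and endosomal trafficking had 5 probes, 5 higher in AhR null and 2 called. Rab11fip5, which links Rab11 recycling endosomes to their partners, stood at 6.72, 6.31 and 6.60 on the control arrays, at 7.54, 8.26 and 6.32 on the AhR-d arrays and at 8.02, 8.31 and 8.38 on the AhR null arrays. The AhR null arrays were uniformly high, 1.70 (SE 0.38) above control (3.24-fold), while the AhR-d arrays ran from the control level in batch 3, where the probe was not detected, to the AhR null level in batch 2. Fis1, an outer membrane protein tied to fission, gave 10.51, 10.62 and 10.32 in control, 10.74, 10.56 and 10.39 in AhR-d and 11.08, 11.13 and 10.92 in AhR null cells. AhR null did not overlap the other groups, at 0.56 (SE 0.16) above control, and AhR-d overlapped the controls (0.076, SE 0.16). Mff, the outer membrane receptor of the fission GTPase Drp1, gave 9.13, 9.26 and 8.94 in control, 9.38, 9.63 and 9.17 in AhR-d and 9.50, 9.85 and 9.32 in AhR null cells. Its AhR null values all exceeded the control values, by 0.44 (SE 0.20) on average. Arl2bp, which binds the small GTPase ARL2, stood at 8.47, 8.67 and 8.61 on the control arrays, at 8.65, 8.74 and 8.25 on the AhR-d arrays and at 9.12, 9.32 and 8.98 on the AhR null arrays. Only the AhR null arrays were high among these 9, by 0.55 (SE 0.20), and the AhR-d mean was -0.038 (SE 0.20) from control. Kifbp, a kinesin-binding protein, differed by 0.21 (SE 0.19) in AhR null and by -0.054 (SE 0.19) in AhR-d, with overlap.

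Enzymes of the mitochondrial matrix and of lipid handling gave 7 probes, all higher in AhR null (median 0.61), with 2 called. Bckdk and Ppm1k are the kinase and the phosphatase that switch branched-chain ketoacid dehydrogenase off and on, the step that commits leucine, isoleucine and valine to breakdown. Ppm1k gave 4.72, 5.56 and 4.84 in control, 6.13, 5.70 and 5.33 in AhR-d and 6.59, 6.88 and 6.93 in AhR null cells. It was detected on all 3 AhR null arrays, on 1 AhR-d array and on no control array, so AhR null is at least 1.64-fold higher than control, the bound being the AhR null mean over the lowest detected signal, or the probe's own value if higher, on the control arrays. Bckdk gave 7.84, 7.49 and 7.22 in control, 8.49, 8.03 and 7.80 in AhR-d and 8.07, 8.21 and 8.10 in AhR null cells. Its AhR null and AhR-d means were nearly alike, 0.61 (SE 0.25) and 0.59 (SE 0.25) above control, and AhR-d overlapped the controls. Rida, a deaminase that clears reactive imines, stood at 5.91, 5.89 and 5.26 on the control arrays, at 7.50, 6.69 and 6.09 on the AhR-d arrays and at 7.49, 7.23 and 7.32 on the AhR null arrays. No control array detected it, which makes AhR null at least 2.39-fold higher. AhR-d was detected on 2 arrays only, so no lower limit is given for it. Rdh14, a retinol dehydrogenase, gave 5.39, 7.11 and 6.92 in control, 7.69, 7.31 and 7.31 in AhR-d and 7.25, 7.84 and 7.70 in AhR null cells. The control array of batch 1 was far below the other controls and undetected, and the differences were 1.12 (SE 0.38) in AhR null and 0.96 (SE 0.38) in AhR-d. Ak3, the GTP-AMP phosphotransferase of the matrix, gave 10.24, 10.27 and 10.30 in control, 10.49, 10.37 and 10.26 in AhR-d and 10.55, 10.61 and 10.45 in AhR null cells. AhR null lay above all controls by a small amount, 0.27 (SE 0.15). Dbi, the acyl-CoA-binding protein, stood at 10.83, 10.74 and 10.94 on the control arrays, at 10.93, 10.57 and 11.05 on the AhR-d arrays and at 10.89, 11.11 and 11.06 on the AhR null arrays, with overlapping groups and a difference of 0.18 (SE 0.16). Naxe, the epimerase that repairs hydrated NADH and NADPH, differed from control by 0.38 (SE 0.19) without overlap.

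Chaperones, redox enzymes and iron-sulphur assembly factors had 6 probes, 6 higher in AhR null and 2 called. Msrb2, which reduces oxidised methionine in mitochondrial proteins, gave 5.51, 5.68 and 6.42 in control, 6.44, 6.77 and 6.39 in AhR-d and 6.68, 6.98 and 7.50 in AhR null cells. It was detected on 1 control, 2 AhR-d and 3 AhR null arrays, and its AhR null mean was 1.19 (SE 0.33) above control. Hspa2, a member of the Hsp70 chaperone family, had 2 probes. The probe ILMN_3140383 stood at 7.08, 6.71 and 6.45 on the control arrays, at 7.56, 7.17 and 6.14 on the AhR-d arrays and at 7.67, 7.63 and 7.65 on the AhR null arrays. The AhR null arrays were tightly grouped above all others, by 0.91 (SE 0.34) over control, and AhR-d covered the whole range of the controls and beyond. The other, ILMN_1223285, gave 10.16, 10.00 and 10.05 in control, 10.53, 10.31 and 10.25 in AhR-d and 10.52, 10.67 and 10.71 in AhR null cells, with AhR-d and AhR null above all controls by 0.56 (SE 0.16) (AhR null) and 0.29 (SE 0.16) (AhR-d). Hspd1, the mitochondrial chaperonin Hsp60, gave 10.94, 10.72 and 10.82 in control, 10.84, 10.81 and 11.08 in AhR-d and 11.08, 11.12 and 10.82 in AhR null cells. Its groups overlapped, and the difference was 0.18 (SE 0.16). Glrx, a glutaredoxin, and Isca1, an iron-sulphur assembly factor, differed by 0.43 (SE 0.24) and 0.32 (SE 0.19) in AhR null without overlap with control, and Isca1 had the lowest AhR-d difference of all members, -0.17 (SE 0.19).

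The lysosomal and signalling genes included Tgm2, the probe with the largest difference of the 45. All 5 probes were higher in AhR null (median 1.19) and 3 were called. Tgm2, transglutaminase 2, crosslinks proteins in a calcium-dependent way. Its probe gave 11.24, 12.29 and 11.09 in control, 12.71, 13.74 and 12.91 in AhR-d and 14.20, 14.75 and 13.66 in AhR null cells. AhR-d lay above all controls (1.58, SE 0.33, 2.98-fold), the largest AhR-d difference of the members, and AhR null was 2.67 (SE 0.33) above control (6.34-fold), with its batch 3 array below the highest AhR-d array. Tpp1, a lysosomal peptidase that removes tripeptides, stood at 8.32, 8.34 and 8.07 on the control arrays, at 8.54, 8.91 and 8.49 on the AhR-d arrays and at 9.59, 9.83 and 9.98 on the AhR null arrays. The genotypes did not overlap, with differences of 1.56 (SE 0.20) between AhR null and control, 0.41 (SE 0.20) between AhR-d and control and 1.15 (SE 0.20) between AhR null and AhR-d. Atp6v1a, the catalytic subunit of the proton pump that acidifies lysosomes and granules, is described in full because it was called against AhR-d, a choice made after its values were seen. Its values were 9.55, 9.89 and 9.56 (control), 10.28, 9.79 and 9.93 (AhR-d) and 10.70, 10.93 and 10.94 (AhR null). All AhR null arrays exceeded all AhR-d arrays, by 0.86 (SE 0.18), and AhR-d differed from control by 0.33 (SE 0.18) with overlap. Ctsa, the lysosomal carboxypeptidase cathepsin A, gave 7.82, 8.35 and 7.81 in control, 8.06, 8.13 and 7.80 in AhR-d and 8.28, 8.88 and 8.09 in AhR null cells. Only its AhR null array of batch 2 stood apart, and the difference was 0.42 (SE 0.25) with overlapping groups. Prkaca, the catalytic alpha subunit of protein kinase A, stood at 10.57, 10.74 and 10.88 on the control arrays, at 10.51, 10.94 and 10.91 on the AhR-d arrays and at 10.77, 10.99 and 11.02 on the AhR null arrays, again with overlap and a difference of 0.19 (SE 0.17).

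The 5 probes without a gene symbol were all higher in AhR null, with a median of 1.07 and 3 called. The largest difference was that of ILMN_1253008, which gave 5.65, 6.60 and 6.38 in control, 7.56, 6.52 and 7.41 in AhR-d and 7.42, 7.95 and 7.92 in AhR null cells. It was undetected on the control array of batch 1, and its AhR null mean was 1.55 (SE 0.34) above control. Next came ILMN_2701855, which stood at 8.12, 8.37 and 8.25 on the control arrays, at 8.35, 8.96 and 8.79 on the AhR-d arrays and at 9.39, 9.33 and 9.23 on the AhR null arrays. AhR null did not overlap the other groups there, at 1.07 (SE 0.20) above control. The other 3 differed from control by 1.07 (SE 0.26), 0.27 (SE 0.22) and 0.22 (SE 0.18), the last 2 of these with overlap.

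Other probes of the same genes were set beside the figure probes. For 22 of the 38 genes the array carries at least 1 further probe that is not in the figure, 33 in all, of which 27 passed the detection filter. Their AhR null minus control differences were above 0 for 17 and below 0 for 10, with a median of 0.12 (-0.88 to 2.26), against a median of 0.55 for the 23 figure probes of the same genes and 0.0018 for all probes tested. Called higher were 4 of the 27, of Tmem14c, Etfb, Msrb2 and Rab11fip5, and 0 were called lower, where the shares over all probes were 6.56% and 5.12%. In AhR-d against control the medians were 0.078 for the other probes and 0.28 for the figure probes, and in AhR null against AhR-d 0.16 and 0.26. A higher AhR null signal is treated as part of the choice of the figure probes, so nothing is read from the gap between the medians, and it was not tested. Among the 27, a Rida and an Msrb2 probe were detected on no control array and an Mff probe on no AhR-d array. The measured values of these probes enter these medians, counts and range. The Rida and Msrb2 probes passed the detection filter only through AhR-d and AhR null arrays. Their direction and the Msrb2 call are therefore not read as a result. The Mff probe sets the low end of the range, although only 1 AhR null array detected it.

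**Figure D5:**
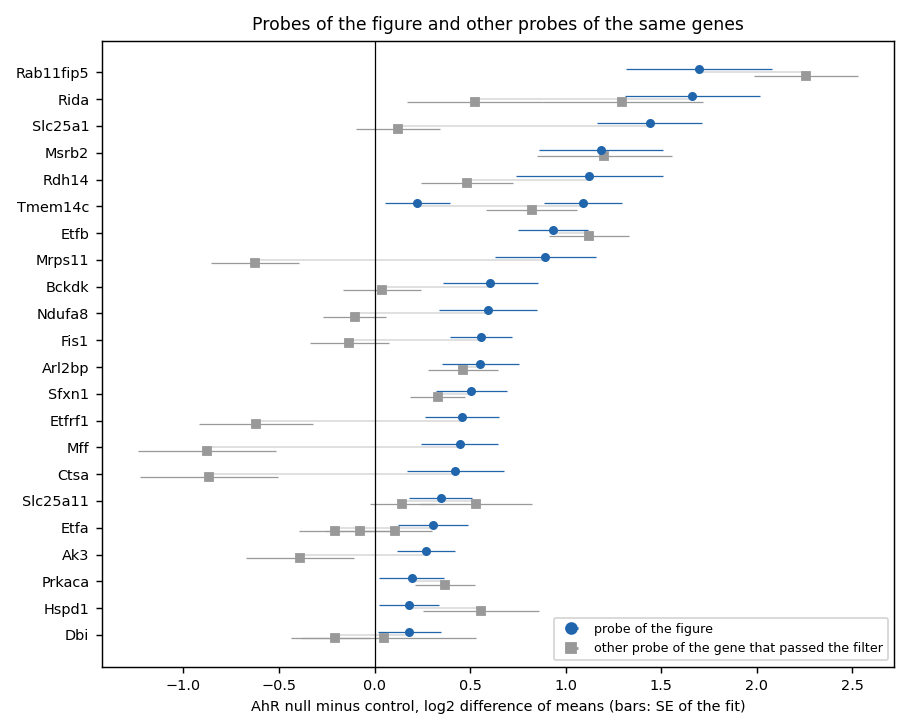
AhR null minus control log2 difference for the 22 genes with another probe that passed the detection filter, with figure probes as blue circles, the other probes of the gene as grey squares, and bars of 1 SE of the fit. Measured values are plotted, including those of the Rida and Msrb2 probes that no control array detected. Pairs lie close together for Etfb and on opposite sides of 0 for Mrps11, Ctsa and Etfrf1.

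In 13 genes every other passing probe pointed the same way as the figure probe. For Msrb2 and a Rida probe the filter was passed without any control array, so nothing is read from their direction. For Rab11fip5 the other probe, ILMN_1216781, gave 6.99, 6.81 and 6.29 in control, 7.97, 8.27 and 8.16 in AhR-d and 9.28, 8.42 and 9.16 in AhR null cells, with no overlap between genotypes. Its difference was 2.26 (SE 0.27) in AhR null and 1.43 (SE 0.27) in AhR-d, larger in both than the figure probe's 1.70 (SE 0.38) and 0.83 (SE 0.38), and it was high on all 3 AhR-d arrays where the figure probe was not. For Etfb the other probe gave 9.49, 9.67 and 8.94 in control, 9.81, 9.91 and 9.79 in AhR-d and 10.18, 10.59 and 10.71 in AhR null cells. Its AhR null difference of 1.12 (SE 0.21) stood next to 0.94 (SE 0.18) for the figure probe. For Msrb2 the other probe was detected on 3 AhR null arrays and no control array, so AhR null was at least 1.85-fold higher there, and the figure probe differed by 1.19 (SE 0.33). The third Tmem14c probe differed by 0.82 (SE 0.24), between the 2 figure probes. Rida had 2 other passing probes. AhR null was at least 1.81-fold higher on the first, which no control array detected, and the second, detected on 2 control arrays, differed by 0.52 (SE 0.35). Also above 0 were the other probes of Arl2bp (0.46, SE 0.18), Sfxn1 (0.33, SE 0.14), Rdh14 (0.48, SE 0.24), Prkaca (0.37, SE 0.16), Hspd1 (0.56, SE 0.31) and Slc25a11 (0.53, SE 0.29 and 0.14, SE 0.17).

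Slc25a1 and Bckdk were above 0 on the other probe by little. For Slc25a1 the other probe gave 9.96, 9.40 and 10.35 in control, 9.70, 9.88 and 10.02 in AhR-d and 10.18, 9.91 and 10.00 in AhR null cells, with overlapping groups and a difference of 0.12 (SE 0.22), where the figure probe had 1.44 (SE 0.27). For Bckdk it differed by 0.037 (SE 0.20) against 0.61 (SE 0.25).

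In 7 genes every other passing probe lay below 0: Ak3, Ctsa, Etfrf1, Fis1, Mff, Mrps11 and Ndufa8. The other Mrps11 probe gave 8.18, 7.83 and 7.85 in control, 7.55, 7.83 and 7.97 in AhR-d and 7.29, 7.18 and 7.52 in AhR null cells. All its AhR null values were below all control values, with a difference of -0.63 (SE 0.23), opposite in sign to the figure probe's 0.89 (SE 0.26). For Ctsa the other passing probe gave 6.81, 6.80 and 7.11 in control, 6.47, 6.03 and 5.19 in AhR-d and 6.22, 6.35 and 5.54 in AhR null cells. AhR null and AhR-d were both below control there without overlap, with differences of -0.87 (SE 0.36) and -1.01 (SE 0.36). The probe was detected on 3 control arrays but on only 2 AhR-d and 2 AhR null arrays, so the size of these differences is uncertain. Mff's other probe was detected on 2 control arrays, 1 AhR null array and no AhR-d array. Its level in AhR null cells was therefore mostly unmeasured, and its measured difference is not read as a size. The other Etfrf1 probe gave 6.76, 6.95 and 7.55 in control, 6.02, 6.38 and 6.51 in AhR-d and 6.66, 6.22 and 6.51 in AhR null cells and differed by -0.62 (SE 0.30) in AhR null and -0.78 (SE 0.30) in AhR-d. For Ak3, Fis1 and Ndufa8 the differences were -0.39 (SE 0.28), -0.13 (SE 0.21) and -0.10 (SE 0.16). The other probes of Etfa (-0.21, SE 0.19, -0.077, SE 0.18 and 0.11, SE 0.20) and Dbi (-0.21, SE 0.18 and 0.048, SE 0.48) fell on both sides of 0. Which transcripts each probe reads is not given in the files, so whether such pairs measure different isoforms was not tested.

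The genes are spread over 16 chromosomes, with 0 encoded in mitochondrial DNA. A targeted or congenic locus can carry flanking DNA of another strain, so closeness to Ahr on chromosome 12 was checked. Hspa2 and Rdh14 lie on that chromosome, and 0 of the 38 genes lie within 20 Mb of Ahr. The 5 probes without a symbol were not placed, and a longer flanking segment was not looked for.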

How the data were processed

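Deposited were linear signal intensity with a detection p-value per probe and array, both made by the authors with GenomeStudio per the submitters' processing notes (no version given), and a series table of log2 values that differ from the log2 of the deposited intensity by 1 constant per array. The figure table repeats the intensity of its 45 probes within 9e-04. From the intensity, neqc of limma 3.58.1 (R 4.3.3) corrected the background by normexp with an offset of 16 and quantile-normalised the log2 values. Probes with a detection p-value under 0.01 on at least 3 of 9 arrays were kept, 9777 of 25697, without averaging probes of a gene. A limma fit with 1 mean per genotype, 6 residual degrees of freedom and an intensity trend gave differences, SE and Benjamini-Hochberg adjusted p over all probes tested; "called" means an adjusted p under 0.05. It was tested on simulated data in which arrays varied independently, so the batch correlation given below was not covered.

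The platform annotation names 23978 probes and leaves 1719 unnamed; 23962 Entrez identifiers matched RefSeq genes of GRCm38.p6. Function groups follow gene symbols. Described array by array are the 2 members of each group with the largest difference between AhR null and control, the 3 with the largest difference between AhR-d and control, and members with another passing probe; the others are given by difference or count. Of the pathway lists, only the respiratory chain held at least 2 figure genes and is reported, with up to 4 called genes named. Members and lists were chosen with earlier results of these data known.

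Arrays of 1 batch correlated at 0.103 to 0.336 in their deviations from the genotype means (9 pairs), and arrays of different batches and genotypes at -0.341 to 0.08 (18 pairs). Deviations cancel within each genotype, so positive values within batches force lower ones between batches. The latter range is therefore no separate support for a pairing. The pairing rests on the labels' batch numbers and the correlations within batches. A batch block was therefore fitted as an alternative. Precision is limited by 3 arrays per genotype.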

Additional observations from a re-analysis of the deposited data

How the results depend on the processing

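In AhR null against control, 18 of the 45 probes were called. Settings chosen with the design gave 13 to 22, the fewest with only probes detected on all 9 arrays (38 members tested) and the most with batch as a replicate block; leaving out 1 array gave 12 to 20. With array brightness as a covariate, added after the data were seen, 7 remained: Tpp1, Tgm2, Tmem14c, ILMN_2701855, Etfb, Ppif and Atp6v1a, which were also called in every other setting. The median difference of 0.557 was 0.784 with the deposited log2 values and 1.14 with median scaling, where all probes had medians of 0.287 and 0.557, 0.407 without background correction and 0.46 with detection on all 9 arrays; with 1 array left out it ran from 0.49 to 0.618. In AhR-d against control, where 0 were called, 1 was called with median scaling, 1 without the detection filter, 2 with the replicate block and 0 to 1 with 1 array left out (1 without control replicate 2). The median of 0.282 became 0.246 with the deposited values, 0.471 with median scaling, 0.199 without background correction, 0.185 with detection on all arrays and 0.216 with the brightness covariate. It ran from 0.165 to 0.347 with 1 array left out, the lowest without AhR-d replicate 2. In AhR null against AhR-d, 2 were called; median scaling and the brightness covariate gave 1, the replicate block 4, and leaving out AhR-d replicate 2 or 3 or any AhR null array gave 1, within a range of 1 to 2. The median of 0.304 became 0.575 with the deposited values and 0.724 with median scaling, with a range of 0.268 to 0.401 with 1 array left out. The causes were not tested. Among single members in AhR null against control, 112 differences under alternatives moved by more than the spread between replicates and 781 did not. Low signal limits Rida and Ppm1k, undetected in all controls.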
